A study of Mus musculus with 6 samples.

Results

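The E2F and retinoblastoma family of 10T1/2 cells, an established line of mouse embryonic fibroblasts, was taken as 10 genes chosen by name: the transcription factor genes E2f1 to E2f8 and the pocket protein genes Rb1 and Rbl1. They are 10 of the 55471 genes in the deposited table, and all 10 were among the 15454 genes that passed the filter on low counts. The series holds 3 libraries of polyA RNA from wild-type (WT) cells and 3 labelled Ranbp2 KO, all untreated. Per the design text, the libraries of a group are biological replicates and CRISPR/Cas9 was used for the knockout. Neither it nor the labels say whether the KO cells are 1 clone or how the cultures were kept apart, so the p-values given here rest on the spread between libraries.

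E2F proteins bind promoters of genes needed for DNA replication and cell division, most of them as dimers with a DP protein. E2F1, E2F2 and E2F3 are known as activators, E2F4 and E2F5 as repressors that work with pocket proteins, E2F6 as a repressor within a Polycomb complex, and E2F7 and E2F8 as repressors that need neither DP nor pocket proteins. The retinoblastoma protein, encoded by Rb1, and p107, encoded by Rbl1, hold E2F in check until cyclin-dependent kinases phosphorylate them. Several of these genes, among them E2f1, E2f2, E2f7, E2f8 and Rbl1, are themselves known E2F targets.

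The libraries held 32072817 to 46321967 expected counts. Ranbp2 itself stood at 291.7 ± 2.67 CPM (counts scaled to a common library size) in the KO-labelled and at 239.5 ± 17.2 CPM in the WT libraries (mean ± SD, n = 3), with no overlap, a log2 difference of 0.28 (SE 0.07, adjusted p = 0.0120 by edgeR). Its mRNA was thus not lower in the libraries labelled KO, and a count per gene does not show an edit within the transcript. All 10 fibroblast markers passed the filter, with summed levels of 26790 to 33710 CPM in KO-labelled and 21320 to 24740 CPM in WT libraries; 4 were higher and 3 lower, and Thy1 stood at 0.533 ± 0.216 against 58.3 ± 2.45 CPM (SD, n = 3). Summed epithelial markers stood at 6.11 to 8.94 against 2.04 to 2.84 CPM, with Cdh1 the only 1 of 6 to pass the filter. Summed immune markers stood at 1.69 to 2.77 against 1.70 to 2.35 CPM, with Adgre1 at 0 counts in every library. Summed skeletal muscle markers stood at 8.46 to 12.5 against 6.68 to 7.03 CPM, with Myod1 and Myog at 0 counts. Endothelial markers summed to 26.4 to 30.2 against 35.4 to 39.8 CPM, and neuronal markers to 261 to 282 against 185 to 198 CPM, most of it from Tek and Map2. Other genes of these lists, named after their values were seen, went the opposite way: the endothelial Vwf rose from 0.269 ± 0.153 to 6.04 ± 0.886 CPM while Tek fell, and the neuronal Tubb3 fell from 15.4 ± 1.10 to 2.03 ± 0.207 CPM while Map2 rose (SD, n = 3). The part of these marker levels in the results below was not tested.

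Family members differed between the groups by small amounts and in both directions. Of the 10 members, E2f2, Rbl1 and E2f7 rose and E2f6 and Rb1 fell in the KO-labelled libraries at an adjusted p below 0.05 (edgeR, quasi-likelihood test, Benjamini-Hochberg over all genes tested), and 5 did not pass. Over all genes tested, 38.9% passed, 17.6% as higher and 21.3% as lower, so 5 of 10 is close to the background. The groups did not overlap for 7 of 10 members, against 51.4% of genes tested. The median log2 difference, KO-labelled minus WT, was 0.05 over the members and 0.01 over all genes tested. The median size of the difference, without its sign, was 0.21 over the members and 0.28 over all genes tested. None of the 10 members differed by 2-fold or more, where 11.4% of genes tested did. In bulk libraries, fewer cells of a kind or of a cell cycle phase and less RNA per cell cannot be told apart.

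**Figure D1:**
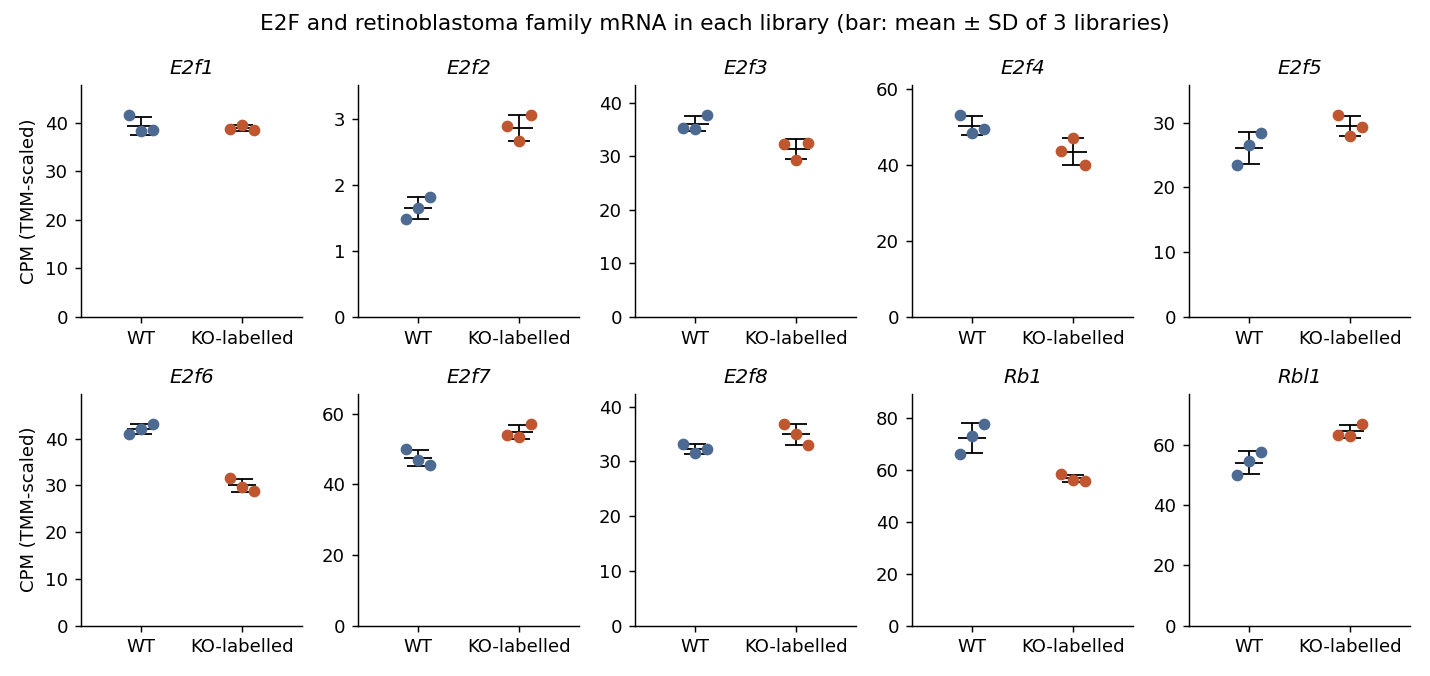
CPM of each family member in each library (points; y axis from 0, scaled per gene), with the mean ± SD of 3 WT (blue) and 3 KO-labelled (orange) libraries. E2f6 and Rb1 lie lower and E2f2, E2f7 and Rbl1 higher in all 3 KO-labelled libraries, while the E2f1 values overlap.

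Among the activators, E2f2 rose and E2f1 was at the same level to within its error. E2f2 (ENSMUSG00000018983, chromosome 4, 136172394 to 136196057, forward strand) stood at 2.90, 2.67 and 3.06 CPM in KO-labelled and at 1.49, 1.65 and 1.83 CPM in WT libraries. Every KO-labelled library was above every WT library, and the log2 difference was 0.79 (SE 0.17, 95% interval 0.40 to 1.18, adjusted p = 0.00545 by edgeR), a 1.73-fold rise. It was the least abundant member, with 96 to 111 counts per KO-labelled library and 62 to 77 per WT library, so counting error is a large part of its spread.

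E2f1 (ENSMUSG00000027490, chromosome 2, 154559407 to 154569892, reverse strand) stood at 38.6, 39.5 and 38.5 CPM in KO-labelled and at 41.5, 38.2 and 38.4 CPM in WT libraries. The groups overlapped, and the log2 difference was -0.02 (95% interval -0.17 to 0.13, adjusted p = 0.852 by edgeR). The interval covers changes of up to 0.17 on the log2 scale, and the sign of the estimate depends on the scaling: it was 0.003 with library size alone. E2f3 (ENSMUSG00000016477, chromosome 13, 29906575 to 29986063, reverse strand) stood at 32.3, 29.3 and 32.5 CPM in KO-labelled and at 35.4, 35.1 and 37.7 CPM in WT libraries. Its groups did not overlap, but the log2 difference of -0.20 (SE 0.07) missed the threshold with an adjusted p of 0.0532 by edgeR. A count per gene does not separate the long and short E2F3 isoforms, which start at different promoters.

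The repressors that depend on pocket proteins showed no called change. E2f4 (ENSMUSG00000014859, chromosome 8, 105297663 to 105305370, forward strand) stood at 43.7, 47.0 and 39.9 CPM in KO-labelled and at 53.1, 48.4 and 49.3 CPM in WT libraries. All 3 KO-labelled values lay below the WT values, with a log2 difference of -0.21 (SE 0.08, adjusted p = 0.0696 by edgeR). E2f3 and E2f4 passed when no filter on low counts was applied, with adjusted p-values of 0.0476 and 0.0359 by edgeR, and under none of the 12 other alternatives. E2f5 (ENSMUSG00000027552, chromosome 3, 14578641 to 14606309, forward strand) stood at 31.1, 28.0 and 29.3 CPM against 23.5, 26.5 and 28.3 CPM. Its groups overlapped, with a log2 difference of 0.18 (95% interval -0.02 to 0.37, adjusted p = 0.133 by edgeR).

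E2f6, which represses germline genes with the Polycomb complex PRC1.6 in somatic cells, had the smallest p of the family. E2f6 (ENSMUSG00000057469, chromosome 12, 16810963 to 16839742, forward strand) stood at 31.6, 29.7 and 28.9 CPM in KO-labelled and at 41.1, 42.0 and 43.2 CPM in WT libraries. The lowest WT value was well above the highest KO-labelled value, and the log2 difference was -0.48 (SE 0.07, 95% interval -0.64 to -0.33, adjusted p = 0.000444 by edgeR), a level 28.5% lower. Across the 13 alternatives the log2 difference lay between -0.52 and -0.46 and passed each time.

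The atypical repressors differed little. E2f7 (ENSMUSG00000020185, chromosome 10, 110745439 to 110787384, forward strand) stood at 54.0, 53.5 and 57.1 CPM in KO-labelled and at 50.0, 46.9 and 45.4 CPM in WT libraries. The groups did not overlap, and the log2 difference was 0.21 (SE 0.07, adjusted p = 0.0415 by edgeR). This call was lost without KO-labelled library 1, 2 or 3 or without WT library 2 or 3, with adjusted p-values of 0.0615, 0.0853, 0.156, 0.140 and 0.0783 by edgeR, and the log2 difference stayed between 0.18 and 0.25 over the alternatives. E2f8 (ENSMUSG00000046179, chromosome 7, 48866429 to 48881596, reverse strand) stood at 36.8, 35.0 and 33.0 CPM against 33.2, 31.5 and 32.2 CPM. Its groups overlapped, with a log2 difference of 0.12 (95% interval -0.04 to 0.27, adjusted p = 0.221 by edgeR).

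The 2 pocket protein genes moved in opposite directions. Rb1 (ENSMUSG00000022105, chromosome 14, 73183673 to 73325822, reverse strand) stood at 58.5, 56.1 and 55.8 CPM in KO-labelled and at 66.4, 73.3 and 77.8 CPM in WT libraries. The groups did not overlap, and the log2 difference was -0.35 (SE 0.08, 95% interval -0.52 to -0.18, adjusted p = 0.00524 by edgeR), a level 21.6% lower that passed under all 13 alternatives. Annotated Rb1 exons share 408 bases with Lpar6, a receptor gene on the opposite strand within Rb1, and 488 bases with Rcbtb2. Lpar6 fell by 0.65 on the log2 scale (adjusted p = 0.000412 by edgeR), while Rcbtb2 stood at -0.10 (adjusted p = 0.322). The strand setting of the counting is not given in the sources used here, and how many reads these genes shared was not tested.

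Rbl1 (ENSMUSG00000027641, chromosome 2, 157145893 to 157204534, reverse strand) stood at 63.3, 62.9 and 66.9 CPM in KO-labelled and at 49.9, 54.6 and 57.6 CPM in WT libraries. The groups did not overlap, and the log2 difference was 0.25 (SE 0.08, 95% interval 0.08 to 0.42, adjusted p = 0.0252 by edgeR). The call was lost without KO-labelled library 2 or 3 or without WT library 1 or 2, with adjusted p-values of 0.0633, 0.108, 0.0642 and 0.0838 by edgeR.

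The ratio of Rbl1 to Rb1 does not depend on scaling between libraries and was formed after the values were seen. Per kb of annotated exon, it was 1.09, 1.13 and 1.20 in the KO-labelled libraries and 0.755, 0.748 and 0.743 in the WT libraries. Rb1 was therefore the more abundant of the pair in every WT library and Rbl1 in every KO-labelled library. The means were 1.14 ± 0.0591 and 0.749 ± 0.00592 (SD, n = 3); an exact two-sided permutation test gave p = 0.1, the smallest that 3 against 3 allows.

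Levels of different genes were compared as CPM per kb of annotated exon. In WT libraries E2f4 had the highest level, 20.5 ± 1.01, followed by E2f5 at 14.6 ± 1.37, E2f1 at 12.5 ± 0.587 and Rb1 at 12.1 ± 0.957 CPM per kb. E2f1 and Rb1 overlapped in range, and every other neighbouring pair in the WT order lay apart. Rbl1 stood at 9.02 ± 0.646, E2f6 at 7.43 ± 0.184, E2f3 at 6.64 ± 0.258, E2f8 at 5.93 ± 0.160, E2f7 at 5.27 ± 0.259 and E2f2 at 0.340 ± 0.0344 CPM per kb. In KO-labelled libraries the order began with E2f4 at 17.8 ± 1.44 and E2f5 at 16.5 ± 0.890 CPM per kb, which overlapped. E2f1, Rbl1 and Rb1 followed at 12.3, 10.7 and 9.44 CPM per kb, each apart from the next. E2f8, E2f7, E2f3 and E2f6 lay between 6.42 and 5.31 CPM per kb, each overlapping the next, and E2f6 stood in the ninth place, after the sixth in WT. E2f2 was again the lowest, at 0.589 CPM per kb. The middle of the order depends on the length used: per kb of the longest transcript, Rb1 stood second in WT libraries at 15.6 and E2f6 at 13.9, just below E2f1, CPM per kb, with E2f4 still first at 25.2 and E2f2 last at 0.350.

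The make-up of the E2f mRNA pool within each library does not depend on scaling between libraries. The activators E2f1, E2f2 and E2f3 together held 26.0%, 26.0% and 27.3% of summed E2f CPM per kb in KO-labelled and 27.1%, 26.3% and 26.3% in WT libraries. The groups overlapped, with means of 26.4 ± 0.743% and 26.6 ± 0.463% (SD, n = 3; exact two-sided permutation p = 0.6). The share of E2f6 was 7.50 ± 0.179% in KO-labelled and 10.2 ± 0.267% in WT libraries, and that of E2f7 and E2f8 together was 17.7 ± 0.275% and 15.3 ± 0.506%. In neither case did the groups overlap (exact two-sided permutation p = 0.1 each). Nor did they for E2f5, at 23.35 ± 1.07% against 19.99 ± 1.88%, or for E2f4, at 25.1 ± 1.77% against 28.0 ± 1.20%. These were the largest shifts of any single gene. Among the 12 shares and ratios, the groups overlapped only for E2f1 and for the 3 activators together. Of the 12 shares and ratios tested, none could pass with 3 against 3 libraries, and the smallest p adjusted over them by Benjamini-Hochberg was 0.12.

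**Figure D2:**
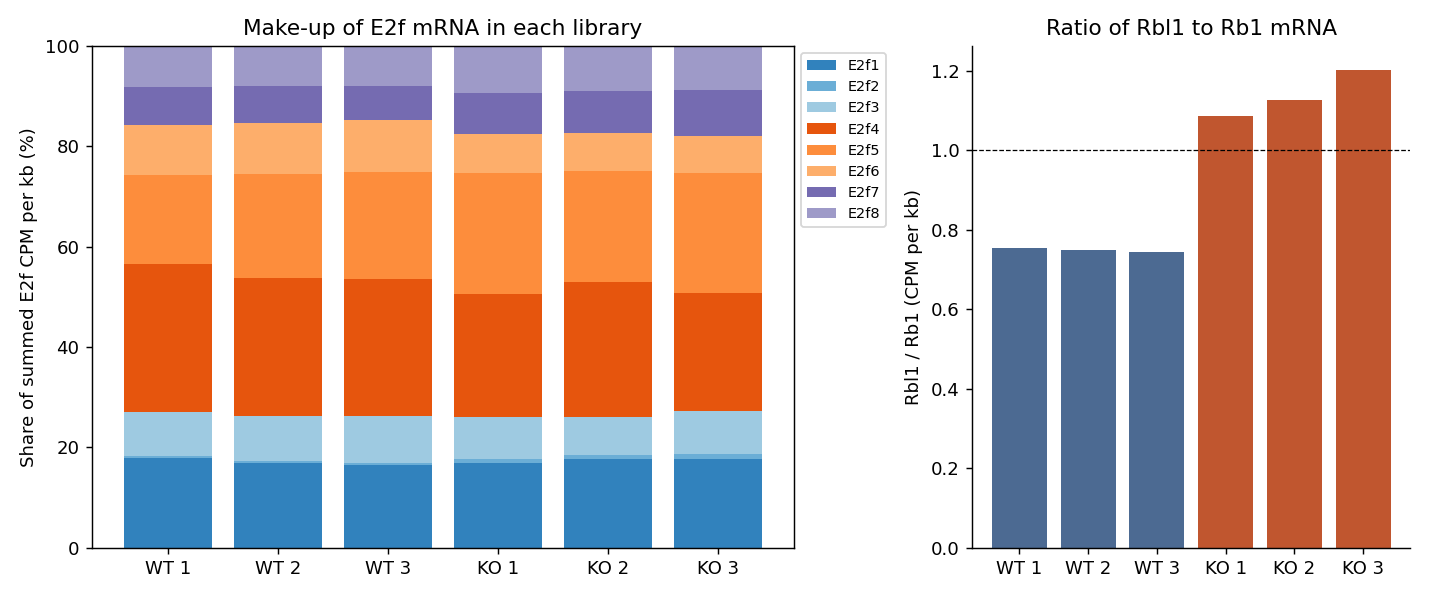
Left, the share of each E2f gene in summed E2f CPM per kb (y axis, %) for each WT and KO-labelled library; right, the ratio of Rbl1 to Rb1 CPM per kb, with a dashed line at 1. The blue activator blocks take 26.0% to 27.3% in every library, and the ratio lies at 0.743 to 0.755 in WT and 1.09 to 1.20 in KO-labelled libraries.

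Genes on some chromosomal stretches differed together, and the members did not all move with their neighbours. For comparison, 38.9% of all genes tested were called, 17.6% as higher and 21.3% as lower. The 50 other tested genes within 5 Mb of E2f6 showed a median of 0.35 on the log2 scale, while E2f6 stood at -0.48. Of these neighbours, 14 were called higher and 6 lower, a share called in either direction near that of all genes. Within 5 Mb of Rbl1, 111 genes had a median of -0.23, with 4 higher and 49 lower, while Rbl1 stood at 0.25. Neighbours of E2f2 (130 genes) and Rb1 (58 genes) had medians of -0.01 and -0.06, near the median of all genes. The 28 neighbours of E2f7 had a median of 0.12, with 7 higher and 7 lower.

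Among members that were not called, E2f3 and E2f5 lay in stretches with shifts of opposite sign. The 44 neighbours of E2f3 had a median of -0.48, with 3 higher and 23 lower, so that E2f3 at -0.20 lay above them. The shares over all genes tested were 17.6% higher and 21.3% lower. The 17 neighbours of E2f5 had a median of 0.39, with 9 higher and 0 lower (edgeR; 0 lower also at an unadjusted p below 0.05 and by DESeq2), and E2f5 at 0.18 lay below them. E2f1 had 129 neighbours with a median of -0.23, some of them shared with Rbl1. For E2f4 the median of 94 neighbours was 0.03 and for E2f8 that of 96 was -0.10. Over the other tested genes of the whole chromosome, the median was -0.28 for E2f3 (645 genes) and 0.01 for E2f5 (790 genes). It was -0.11 for E2f1 and Rbl1 (1192 genes) and 0.11 for E2f6 (599 genes), so some shifts were not confined to 5 Mb. The part of these stretches in the members' values was not tested.

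**Figure D3:**
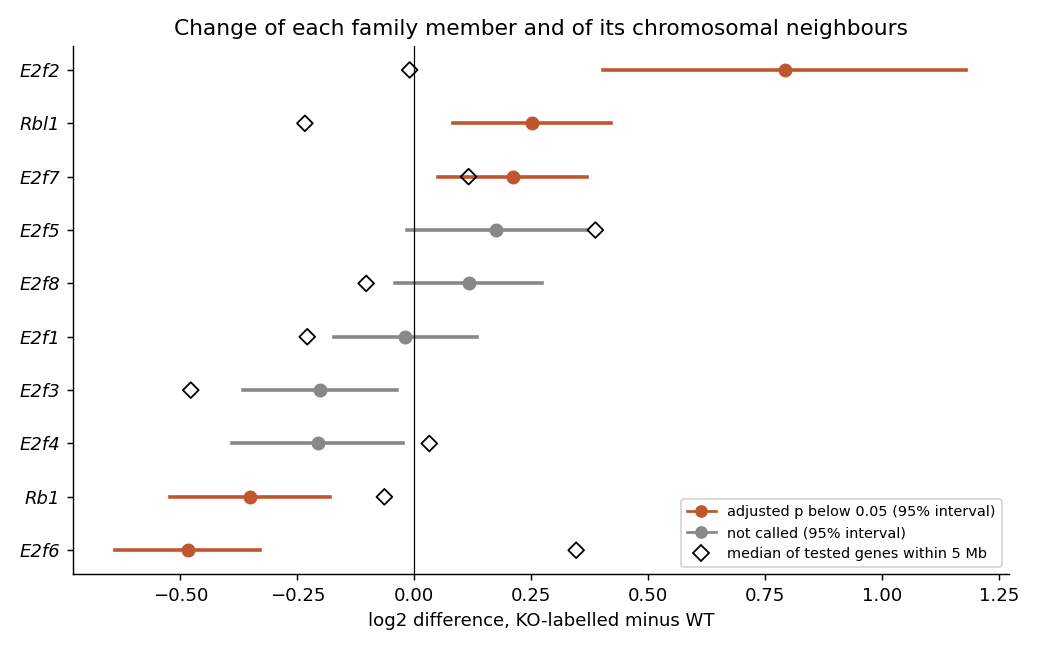
Log2 difference, KO-labelled minus WT (x axis), of each member with its 95% interval, orange where the adjusted p was below 0.05 and grey otherwise; open diamonds are the median of other tested genes within 5 Mb. E2f6 at -0.48 and its neighbours at 0.35 lie on opposite sides of 0, as do Rbl1 at 0.25 and its neighbours at -0.23.

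Promoter sequence was examined because 3 of the members named above as known E2F targets were higher (E2f2, E2f7 and Rbl1). E2f1 and E2f8, also known targets, did not pass, at -0.02 and 0.12. RefSeq windows (GRCm38.p6, 250 bases before to 50 after an annotated start) were found for 7 of 10 members, in 9 windows; E2f4, E2f5 and Rb1 had none. The E2F word was searched on both strands as TTTCCCGC, TTTGGCGC, TTTCGCGC or TTTGCCGC, which read GCGGGAAA, GCGCCAAA, GCGCGAAA and GCGGCAAA on the other strand. It occurred in 4 of the 9 windows, 1 each for E2f2, E2f3, E2f7 and Rbl1, and in 2.26% of all 32851 windows of that length. The latter were not matched to the members for GC content or for known regulation by E2F. The 3 members that rose are shown first, with the word in capitals:
E2f2 (chr4:136172024-136172323, plus strand): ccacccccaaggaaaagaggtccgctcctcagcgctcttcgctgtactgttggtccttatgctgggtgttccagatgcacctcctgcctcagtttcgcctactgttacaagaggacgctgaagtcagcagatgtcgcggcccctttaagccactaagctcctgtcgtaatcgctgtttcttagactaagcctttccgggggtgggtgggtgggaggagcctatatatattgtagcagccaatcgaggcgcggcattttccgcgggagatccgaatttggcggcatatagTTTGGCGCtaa
E2f7 (chr10:110745189-110745488, plus strand): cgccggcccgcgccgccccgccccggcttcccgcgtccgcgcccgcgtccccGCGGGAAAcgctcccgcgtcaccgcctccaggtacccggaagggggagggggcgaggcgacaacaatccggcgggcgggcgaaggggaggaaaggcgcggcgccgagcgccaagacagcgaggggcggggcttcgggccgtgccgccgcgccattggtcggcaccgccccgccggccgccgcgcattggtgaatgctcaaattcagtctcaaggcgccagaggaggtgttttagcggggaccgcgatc
Rbl1 (chr2:157204485-157204784, minus strand): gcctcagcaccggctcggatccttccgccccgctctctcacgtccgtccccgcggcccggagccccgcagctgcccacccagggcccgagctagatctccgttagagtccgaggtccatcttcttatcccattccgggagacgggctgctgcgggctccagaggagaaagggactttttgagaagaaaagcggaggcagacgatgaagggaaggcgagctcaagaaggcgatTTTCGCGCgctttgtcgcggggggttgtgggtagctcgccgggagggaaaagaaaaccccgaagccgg
E2f3, upstream window (chr13:29986014-29986313, minus strand): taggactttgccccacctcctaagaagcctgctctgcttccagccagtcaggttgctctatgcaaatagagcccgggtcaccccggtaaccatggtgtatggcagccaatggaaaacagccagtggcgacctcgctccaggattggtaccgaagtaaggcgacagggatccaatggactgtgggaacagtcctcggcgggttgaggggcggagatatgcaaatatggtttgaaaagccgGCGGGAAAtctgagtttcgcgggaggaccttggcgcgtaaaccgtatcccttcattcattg
E2f6 (chr12:16810715-16811014, plus strand): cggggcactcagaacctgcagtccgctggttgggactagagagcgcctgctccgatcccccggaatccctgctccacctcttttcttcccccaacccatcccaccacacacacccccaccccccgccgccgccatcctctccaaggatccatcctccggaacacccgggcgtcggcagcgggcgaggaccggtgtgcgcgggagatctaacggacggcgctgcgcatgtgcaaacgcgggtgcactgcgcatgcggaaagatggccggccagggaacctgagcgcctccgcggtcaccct

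The word began at base +40 for E2f2, -198 for E2f7, -18 for Rbl1 and -11 for E2f3, counted from the annotated start as +1. E2f6, shown because it had the smallest p, held no such word in its window, nor did E2f1, E2f8 and the second windows of E2f2 and E2f3. The RefSeq start of the E2f1 window lies 466 bases inside the GENCODE gene, so the stretch before the GENCODE start was not examined; that of E2f2 lies at -120 relative to the GENCODE start. A match is a run of letters and no evidence of binding. E2f3, which was not called, holds the word in its upstream window only, and its count does not separate transcripts from the different starts. The part of the word in the members' values was not tested.

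The genes most like 2 of the members across the 6 libraries were listed by the root mean square distance of log2 CPM, centred on the WT mean, among 9382 genes with at least 10 CPM in the higher group. With that centring, the distance depends largely on the size of the group difference, and it does not show that genes vary together within a group. For E2f2 the nearest were Mt1 (a metallothionein), Peg10 (an imprinted retrotransposon-derived gene) and Oard1, at distances of 0.0478, 0.0529 and 0.0546. Their log2 differences were 0.795, 0.796 and 0.809, against 0.792 for E2f2, which itself lies below 10 CPM. Mt1 stood at 25.3 ± 1.18 against 14.6 ± 1.08 CPM. For E2f6 they were Cdk13 (a kinase of RNA polymerase II), Ripk1 (a kinase of death receptor signalling) and Card19, at 0.0131, 0.0191 and 0.0232. Cdk13 stood at 61.6 ± 2.96 against 86.8 ± 3.31 CPM.

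Partners of the family in the dimer and in the MuvB complex, which joins pocket proteins or B-Myb at cell cycle promoters, rose in 6 of 11 cases, with 0 lower and 5 not passing (edgeR; 1 lower at an unadjusted p below 0.05, 0 lower by DESeq2). Over all genes tested, 17.6% were called higher and 21.3% lower. The median log2 difference of these partners was 0.23, against 0.01 over all genes tested. Lin9, a core MuvB subunit, stood at 39.8, 37.3 and 37.2 CPM in KO-labelled and at 24.1, 27.3 and 28.2 CPM in WT libraries, a log2 difference of 0.52 (SE 0.08, adjusted p = 0.000676 by edgeR). The MuvB subunits Rbbp4, Lin54 and Lin52 rose by 0.39, 0.37 and 0.38; the call for Lin52 was lost without WT library 2 (adjusted p = 0.0528 by edgeR). Lin37, the remaining MuvB subunit, stood at 0.13 (SE 0.12, adjusted p = 0.410 by edgeR) with overlapping groups. Mybl2, the gene of B-Myb, and its relative Mybl1, named after their values were seen, rose by 0.23 and 0.41. The DP genes Tfdp1 and Tfdp2 stood at 0.09 (SE 0.08) and 0.13 (SE 0.09) and Rbl2, the gene of the third pocket protein p130, at -0.18 (SE 0.07), all with an adjusted p above the threshold (0.433, 0.296 and 0.0643 by edgeR).

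Upstream of the pocket proteins, Ccnd1 fell while Ccne1, Ccne2 and Ccna2 rose. Of 10 cyclin and kinase genes, 3 rose, 1 fell and 6 did not pass, with a median of 0.03, a share of calls near the 38.9% of all genes tested. Ccnd1, the gene of cyclin D1, which starts phosphorylation of the retinoblastoma protein, fell from 601.0, 591.0 and 594.6 CPM in WT to 350.1, 400.7 and 395.6 CPM in KO-labelled libraries. Its log2 difference was -0.64 (SE 0.08, adjusted p = 0.000162 by edgeR). The other D-type cyclin genes, Ccnd2 and Ccnd3, stood at -0.18 and -0.14 and did not pass (adjusted p = 0.149 and 0.251 by edgeR). The S phase cyclin genes Ccne1, Ccne2 and Ccna2, which are E2F targets, rose by 0.48 (SE 0.07), 0.53 (SE 0.16) and 0.33 (SE 0.06). The WT values of Ccne2 ran from 39.2 to 66.8 CPM; without WT library 1 its log2 difference was 0.34, and its call was lost without KO-labelled library 1, 2 or 3 or WT library 2 (adjusted p = 0.0599, 0.0666, 0.0634 and 0.0510 by edgeR). The kinase genes Cdk4, Cdk6 and Cdk2 did not pass, at -0.13, 0.09 and 0.17.

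Of 7 CDK inhibitor genes, 6 passed the filter. Of these, 3 rose, 1 fell and 2 did not pass, with a median of 0.18 against 0.01 over all genes tested. Over all genes tested, 17.6% were called higher and 21.3% lower. Cdkn1a, the gene of p21, fell by 1.86 on the log2 scale (SE 0.07). Cdkn1b, the gene of p27, rose from 80.3 ± 2.63 to 104.6 ± 6.83 CPM and Cdkn2c, which blocks CDK4 and CDK6, from 54.5 ± 3.75 to 78.5 ± 5.29 CPM. Cdkn2a rose by 0.42 (SE 0.13) from 6.41 ± 1.06 CPM, a call lost without KO-labelled library 1, 2 or 3 or WT library 2 or 3 (adjusted p = 0.0800, 0.0832, 0.0541, 0.118 and 0.0815 by edgeR).

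Most of the genes known to be switched on by E2F at G1/S rose, while E2f1 itself stood at -0.02. Of 43 such genes, all tested, 31 rose, 1 fell and 11 did not pass, with a median of 0.32 against 0.01 over all genes. Over all genes tested, 17.6% were called higher and 21.3% lower. Ccne1, Ccne2, Ccna2 and Cdc25a are counted both here and among the cyclin and kinase genes. All 7 Mcm genes, Mcm2 to Mcm7 of the replicative helicase and Mcm10, rose by 0.30 to 0.73. Mcm6 stood at 327.7, 346.2 and 325.4 CPM in KO-labelled and at 199.5, 201.1 and 200.1 CPM in WT libraries. Of 5 polymerase and primase genes 4 rose, and of 5 clamp, clamp loader and GINS genes 3 rose. Msh6, a mismatch repair gene named after its value was seen, went from 73.2 ± 2.93 to 105.4 ± 1.33 CPM. Uhrf1, a reader of hemimethylated DNA, and Chaf1b, a histone chaperone subunit, rose by 0.81 (SE 0.08) and 0.61 (SE 0.07).

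Nucleotide supply genes were mixed. Tyms, the gene of thymidylate synthase, rose by 0.24 (SE 0.08). The ribonucleotide reductase genes Rrm1 and Rrm2 and the thymidine kinase gene Tk1 did not pass, at 0.07, 0.02 and -0.12. Dnmt1 and Cdc25a, also not passing, stood at -0.13 and -0.04. The single G1/S gene that fell was Fbxo5, an inhibitor of the anaphase-promoting complex, at 50.6 ± 4.98 against 66.9 ± 6.84 CPM. These genes, apart from those chosen by the naming rule, were named after their values were seen.

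Of 32 G2/M genes regulated by the DREAM complex of E2F4 or E2F5, pocket proteins and MuvB, 13 rose, 1 fell and 18 did not pass, with a median of 0.16 (edgeR; 4 were lower at an unadjusted p below 0.05 and 2 by DESeq2). The share called in either direction was near the 38.9% of all genes tested. By direction, 17.6% of all genes tested were called higher and 21.3% lower, so the calls in this list were mostly upward. Of the 32 genes, 25 had a log2 difference above 0. Nuf2 and Ndc80, of the outer kinetochore, rose by 0.62 (SE 0.08) and 0.53 (SE 0.07), and Pttg1, the gene of securin, and the phosphatase gene Cdc25c by 0.60 (SE 0.08) and 0.57 (SE 0.07). The member that fell was Aurka, a mitotic kinase, by 0.22 on the log2 scale (SE 0.08, adjusted p = 0.0466 by edgeR). Without WT library 2 the number called was 8, and without KO-labelled library 2 it was 9.

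**Figure D4:**
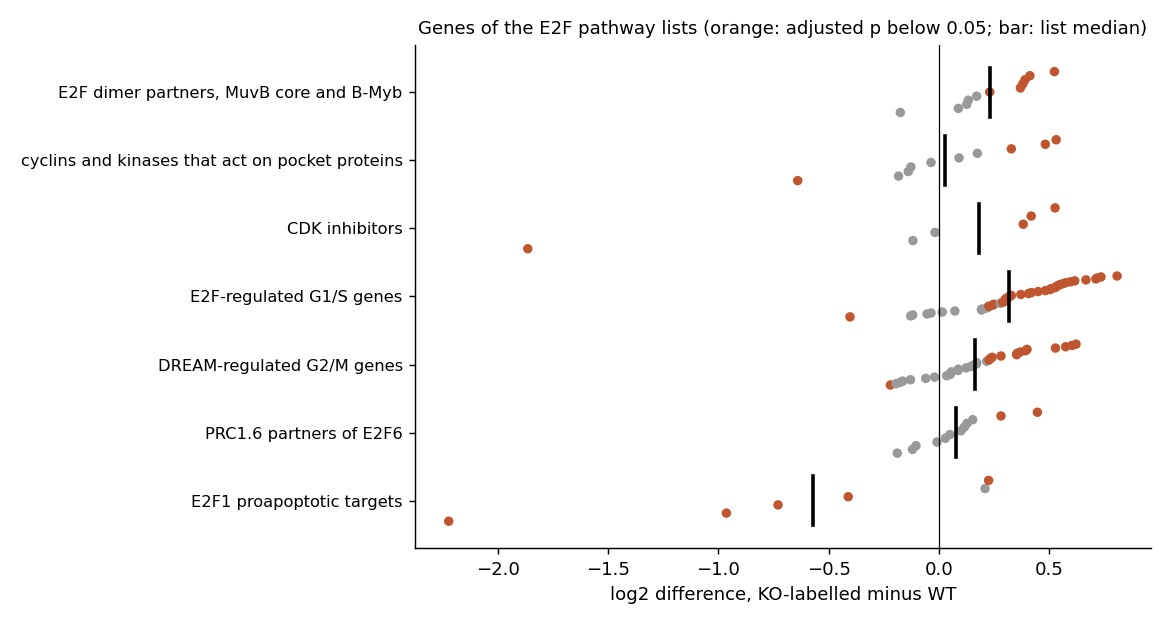
Log2 difference, KO-labelled minus WT (x axis), of each tested gene (points, orange where the adjusted p was below 0.05) in 7 pathway lists, with the list median as a black bar. Of the G1/S genes 31 of 43 are called above 0, against 17.6% of all genes tested. Ccnd1 at -0.64 and Cdkn1a at -1.86 stand apart to the left in their lists.

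Around E2f6, most PRC1.6 partners did not pass and the germline genes were barely read. Of 12 partner genes, 2 rose, 0 fell and 10 did not pass, with a median of 0.08, against 38.9% of all genes tested called (edgeR; 0 were lower also at an unadjusted p below 0.05 and by DESeq2). Cbx3, a heterochromatin protein, rose from 224.6 ± 13.4 to 305.9 ± 20.4 CPM. Rnf2, a ubiquitin ligase of Polycomb complexes, rose by 0.28 (SE 0.09), a call lost without KO-labelled library 1, 2 or 3 or WT library 1 or 2 (adjusted p = 0.111, 0.0572, 0.102, 0.0927 and 0.0919 by edgeR). Of 14 germline genes that E2F6 is known to silence or that are silenced with its targets, 13 did not pass the filter, and Tuba3b, Slc25a31 and Mov10l1 had 0 counts in all 6 libraries. Their summed level was 2.90 to 3.54 CPM in KO-labelled and 2.35 to 2.88 CPM in WT libraries. Most of it came from Sycp1, the gene tested, at 2.71 ± 0.332 against 2.37 ± 0.208 CPM (log2 difference 0.19, SE 0.17, adjusted p = 0.402 by edgeR).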

How the data were processed

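The deposited file gives expected counts per gene, which the authors made with RSEM after cutadapt on build GRCm38, per the submitters' processing notes; the aligner and versions, and whether strand was used, are not given there. Of the values, 17.9% are not whole. Expected counts were rounded, filtered with filterByExpr (minimum count 10, minimum total 15), scaled by TMM and compared by edgeR 4.0.16 (R 4.3.3), quasi-likelihood F test, two-sided, genotype as the only term. CPM use TMM-scaled library sizes. SE come from the F statistic and 95% intervals from its t quantile. Symbols, positions and exon lengths are from GENCODE M21 (GRCm38); 55230 identifiers matched and 241 did not. Totals per library ran from 32072817 to 46321967, which limits low genes such as E2f2 most.

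Members, 8 pathway lists and marker lists were chosen with earlier results of these data known. Named genes are all 10 members, up to 4 genes of smallest adjusted p per list, and the 3 genes most like the called member of smallest p in each direction; a few of these are not reported here. Alternatives were DESeq2 1.42.0, limma-voom 3.58.1, 2 scalings, 2 filters, a replicate block and each library left out. Libraries of a group differed by more than counting noise. In simulated counts for KO-labelled against WT (15174 genes tested), 53% of genes changed 1.5-fold, 70.3% of those changed 2-fold and 95.3% of those changed 4-fold were called, with 8 false calls. Only 66, 64 and 64 tested genes carried these changes, whereas 6011 of 15454 genes were called in the data. With so few changed genes the adjusted threshold is stricter, so these shares do not give the power of the real comparison.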

Additional observations from a re-analysis of the deposited data

How the results depend on the processing

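E2f2, E2f6 and Rb1 kept their direction and passed under all 13 alternatives; E2f7 passed under 6 and Rbl1 under 7, both with a positive difference each time. The number of members called was 5 and lay between 3 and 4 when each library was left out in turn. The estimate for E2f1 changed sign at 0.004 with a filter of 1 CPM in all libraries of a group, 0.003 with library size alone and 0.018 without WT library 1, in a range of -0.043 to 0.018 when libraries were left out. Without any filter on low counts, 30473 genes were tested and E2f7 and Rbl1 had adjusted p-values of 0.167 and 0.061 by edgeR; 1 member was then higher and 4 lower, since E2f3 and E2f4 passed.

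Replicate numbers did not pair the libraries: deviations from the group means correlated across genes at 0.0224, -0.0811 and -0.0343, and no library correlated best with its own number. With a replicate block the members called were 3 (E2f7 and Rbl1 at adjusted p = 0.104 and 0.0504 by edgeR), the genes called in all fell from 6011 to 4994, and 1 PRC1.6 partner was called.

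With libraries left out in turn, 8 to 14 G2/M genes, 1 to 3 PRC1.6 partners and 3 to 6 proapoptotic genes were called. The difference in the activator share, KO-labelled minus WT, was -0.17 percentage points; it was 0.17 with the longest transcript as the length, and -0.60 to 0.10 when libraries were left out in turn, including 0.064, 0.026 and 0.097 without KO-labelled library 1, KO-labelled library 2 and WT library 1. For the 29 named genes outside the family, 356 of 377 values under an alternative kept direction and side of the threshold, 18 lost the call, 3 gained it and 0 reversed. Low counts limit E2f2 and the germline genes.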

Other observations

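Genes through which E2F1 is known to promote apoptosis stood mostly lower. Of 9, 6 passed the filter. Of these, 4 fell, 1 rose and 1 did not pass, with a median log2 difference of -0.57 against 0.01 over all genes tested. Over all genes tested, 21.3% were called lower and 17.6% higher. Apaf1, the core of the apoptosome, stood at 43.1, 43.2 and 43.6 CPM in KO-labelled and at 55.6, 60.7 and 56.3 CPM in WT libraries. Bcl2l11, the gene of the BH3 protein BIM, fell from 4.08 ± 0.406 to 2.10 ± 0.455 CPM (SD, n = 3). Bbc3, the gene of PUMA, fell by 0.73 (SE 0.20), a call lost without KO-labelled library 3 or WT library 2 (adjusted p = 0.0524 and 0.0832 by edgeR).

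The E2F word searched in the promoters was also counted over the lists. It was present for 15 of 33 G1/S genes with a RefSeq window (45.5%), for 2 of 28 G2/M genes (7.14%) and for 0 of 6 proapoptotic genes, against 704 of 27025 genes with a window (2.6%). It was also present for 2 of 6 cyclin and kinase genes, 2 of 8 dimer and MuvB partners and 1 of 6 CDK inhibitor genes. For germline genes the count was 2 of 13 and for PRC1.6 partners 1 of 9. The G1/S genes were listed as known E2F targets.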
